A study of Mus musculus with 6 samples.

Results

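The genes described here are 10 transcription factors of the myeloid lineage: Cebpa, Cebpb, Cebpd and Cebpe of the C/EBP family, the ETS factors Spi1 and Fli1, the RUNX factors Runx1 and Runx3, the repressor Gfi1, and the GATA factor Gata2. They were taken from a list of names and found by the gene identifiers of the count table, with the symbols of GENCODE M21. All 10 were present among 55487 genes, and all 10 passed the filter on low counts, which left 15774 tested genes. The libraries came from lung neutrophils, sorted as Ly6G-positive cells from lungs that had been perfused and digested with liberase. The 3 mutant libraries came from Mrp8-Cre;TGFbR2-fl/fl mice, which carry the transgene Tg(S100A8-cre,-EGFP)1Ilw together with the floxed allele Tgfbr2tm1Karl. The 3 wt libraries came from Cre-negative TGFbR2-fl/fl littermates, so that both groups carry the floxed allele and the mutants alone carry Cre and the EGFP of the same transgene. Cre is driven by the S100A8 (Mrp8) promoter, which is active in the neutrophil lineage, and Tgfbr2 encodes the type II receptor for the cytokine TGF-beta. The labels give neither age nor sex. They do not say whether each library is 1 mouse, so p-values measure the spread between these samples, which may be technical.

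Library totals were 30403494 to 35906780 counts in mutants and 30423365 to 32132330 counts in wt. Levels are CPM, read counts relative to the library total, scaled by TMM, a correction for library composition. Group means are given ± SD over 3 libraries, and log2 fold changes ± SE. A floor of 3 counts was worth 0.0829 to 0.102 CPM. The targeted gene, Tgfbr2, had 176.1, 204.9 and 181.0 CPM in mutants, against 186.1, 185.4 and 200.8 CPM in wt. The table pools all exons of a gene, including those outside the part that Cre deletes, so these values do not check the deletion. All 9 of 9 neutrophil markers were detected.

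The factors act at successive steps of myeloid development. Runx1, with its partner CBFB, and Gata2 are needed for blood stem and progenitor cells, and Fli1 is an ETS factor of progenitors, megakaryocytes and endothelium. PU.1, the product of Spi1, opens the enhancers of myeloid genes, including those of receptors for colony-stimulating factors. C/EBP proteins bind DNA as dimers: C/EBP-alpha commits progenitors to granulocytes, C/EBP-epsilon drives the secondary granule genes of late precursors, C/EBP-beta supports emergency granulopoiesis, and C/EBP-delta is induced in inflammation. GFI1 represses monocytic and progenitor genes in developing granulocytes, and mice that lack it have few mature neutrophils. RUNX3 is known in myeloid and lymphoid cells as a mediator of responses to TGF-beta, the ligand of the deleted receptor.

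The promoter sequences of RefSeq (build GRCm38.p6, windows of 250 bases before to 50 bases after a transcription start) covered 6 of the 10 genes with 10 windows, which were those of Cebpa, Cebpb, Gata2, Gfi1, Runx1 and Runx3. No window was at hand for Cebpd, Cebpe, Spi1 and Fli1. The distal promoter windows of Runx1 and Runx3 are shown because they share an unbroken stretch of 18 bases that holds a pair of core RUNX motifs, so that these genes carry in their own promoters the letters their products bind. The same stretch stands in a window of Runx2, their paralog. In the lines that follow capitals mark ACCACA, the reverse complement of the RUNX core TGTGGT, and each line runs 5′ to 3′ along its gene's strand.
Runx1, chr16:92826025-92826054, minus strand, 21 to 50 bases after the start: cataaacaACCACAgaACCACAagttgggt
Runx3, chr4:135120503-135120532, plus strand, position -142 to -113 from the start: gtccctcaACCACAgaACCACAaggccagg
Runx2, chr17:44814583-44814612, minus strand, 16 to 45 bases after the start: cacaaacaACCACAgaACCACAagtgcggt
Of 32851 windows, 4 held the shared stretch: those of Runx1, Runx2 and Runx3, and that of Gm16225, which overlaps the Runx3 window on the other strand. On either strand, 16.8% of windows held at least 1 TGTGGT and 1.81% held at least 2. A pair spaced 8 bases apart stood in 20 windows, or 0.0609%.

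The promoter of Cebpb is shown because this gene varied most between libraries of the same genotype among the factors above 10 CPM. Its sequence has a GC content of 81.6%. Capitals mark TGACG, the core of the cAMP response element, to which CREB-family factors bind, or its reverse complement CGTCA.
Cebpb, chr2:167688665-167688914, plus strand, 250 to 1 bases before the start: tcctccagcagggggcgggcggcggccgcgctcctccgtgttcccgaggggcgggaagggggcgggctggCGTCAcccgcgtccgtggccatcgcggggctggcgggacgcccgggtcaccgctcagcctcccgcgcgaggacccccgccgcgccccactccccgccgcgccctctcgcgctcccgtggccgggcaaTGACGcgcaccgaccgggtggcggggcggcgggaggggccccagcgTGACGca
The 3 matches compare with 20.8% of all windows that held at least 1, on either strand, and 1.04% that held at least 3. The other motifs searched on both strands were GAGGAA (the PU.1 core), AATCAC (the GFI1 core), TTGCNNAA (a C/EBP site) and AGATAA (bound by the GATA family). GAGGAA stood in the proximal window of Runx1 and in 28.3% of all windows, AATCAC in both windows of Runx1 and in 10.4% of all windows, and TTGCNNAA in a window of Gfi1 and in 10.8% of all windows. AGATAA was in none of the 10 windows, against 11.2% of all windows. A match is a description of letters and not evidence of binding.

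Levels between genes were set side by side per kilobase of summed exon length (RPKM from the TMM-scaled CPM). Spi1 stood far above the other factors, at 538.8 ± 45.1 RPKM (SD, n = 6 libraries), above 99.5% of tested genes. Cebpd followed at 91.0 ± 10.8 RPKM, and the ranges of these neighbours did not overlap. Cebpb, at 45.1 ± 27.0 RPKM, had a range that overlapped with Cebpd as well as with Fli1, although Cebpd was above Cebpb in 6 of 6 libraries. Fli1 averaged 23.9 ± 5.84 RPKM and lay above every library's value of Gata2, at 10.1 ± 2.44 RPKM. The next neighbours, Gata2, Cebpe at 7.02 ± 2.68 RPKM, Runx3 at 4.40 ± 0.676 RPKM and Runx1 at 3.68 ± 0.362 RPKM, overlapped each with the next. Cebpa averaged 1.73 ± 0.361 RPKM, below every value of Runx1. Gfi1 was lowest, at 0.239 ± 0.115 RPKM, above 11.6% of tested genes, and did not overlap with Cebpa. By these percentiles Spi1 and Cebpd (96.9) stood near the top of the tested genes, Cebpa (48.1) near the middle and Gfi1 in the low range.

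**Figure D1:**
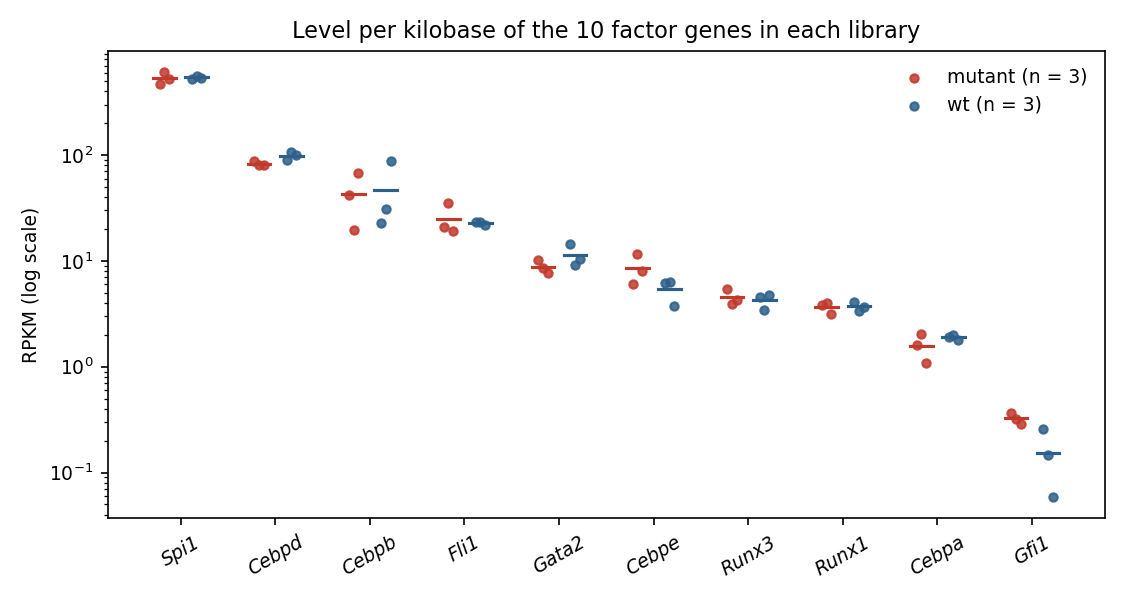
RPKM on a log axis of the 10 factor genes, ordered by mean level, in 3 mutant libraries (left of each pair) and 3 wt libraries (right); points are libraries and bars are group means. Spi1 lies between 474 and 609 RPKM and Gfi1 between 0.0588 and 0.364 RPKM.

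The order depends on the length used for Runx1, whose 9 merged exons sum to 12025 bases. By the length of the longest annotated transcript Runx1 was at 7.55 RPKM and Runx3 at 5.67 RPKM, so that their order turned round and Runx1 also passed Cebpe (7.02 RPKM). By that length Gata2 was at 15.2 RPKM and Spi1 at 714 RPKM. Gene counts of this kind pool all isoforms, and the distal and proximal promoter products of Runx1 and Runx3 cannot be told apart. Libraries with the highest or lowest CPM were counted for the factor genes alone. The same count over all tested genes is not given, so no pattern over the libraries is read. Mutant replicate 2 held the highest CPM of 4 factors (Cebpa, Cebpe, Spi1 and Fli1), and mutant replicate 3 the lowest CPM of 5 (Cebpa, Cebpd, Runx1, Fli1 and Gata2).

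Among Cebpa, Cebpb, Cebpd and Cebpe, Cebpd made up most of the transcripts and Cebpb most of the rest, in both groups. As a share of the summed RPKM of the 4 genes, Cebpd took 61.9% ± 10.1 in mutants, against 66.5% ± 12.7 in wt (SD over 3 libraries a group), and Cebpb took 30.2% ± 13.03 in mutants and 28.4% ± 14.6 in wt. Cebpe took 6.61% ± 3.16 in mutants and 3.78% ± 1.63 in wt. Cebpa took 1.21% ± 0.550 in mutants and 1.30% ± 0.342 in wt. The differences between genotypes were smaller than the SD for Cebpd, Cebpb and Cebpa. For Cebpe the difference was below the SD in mutants and above the SD in wt. The sum leaves out the related bZIP genes Ddit3, at 35.9 ± 0.267 RPKM in mutants and 28.2 ± 4.34 RPKM in wt, and Cebpg, at 2.82 ± 0.473 RPKM in mutants and 3.42 ± 0.951 RPKM in wt.

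Cebpd (ENSMUSG00000071637.5, chromosome 16, 15887286 to 15891031, plus strand, 1 exon) encodes C/EBP-delta. It had 327, 303.5 and 302.5 CPM in mutants, against 334, 404 and 373.5 CPM in wt. Every mutant library lay below every wt library, by a narrow gap between mutant replicate 1 and wt replicate 1. The means were 311 ± 14.0 CPM in mutants and 370.5 ± 35.3 CPM in wt, a log2 fold change of -0.25 ± 0.10 (SE) in edgeR's quasi-likelihood test, with a 95% interval of -0.48 to -0.02. The unadjusted p was 0.0340 and the adjusted p over all tested genes was 0.675, so the difference did not pass the threshold of 0.05. The unadjusted p in edgeR was above 0.05 when mutant replicate 2 (0.0652), mutant replicate 3 (0.0882), wt replicate 2 (0.134) or wt replicate 3 (0.0705) was left out. The exons of Cebpd share 562 bases, 15.0% of their length, with those of Spidr on the other strand. Spidr had 111 to 144 CPM, and since the protocol does not mark strand, reads in the shared part cannot be told apart.

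Cebpb (ENSMUSG00000056501.3, chromosome 2, 167688915 to 167690418, plus strand, 1 exon) had 62.4, 29.5 and 102.8 CPM in mutants, against 34.5, 46.4 and 130.9 CPM in wt. The highest value was 4.44-fold above the lowest, both groups held low and high libraries, and the groups overlapped. The log2 fold change was -0.12 ± 0.51, with an adjusted p of 0.996 in edgeR (95% interval -1.25 to 1.00). The interval covers a change of about 2-fold in both directions, so a difference of that size would not have been detectable. Without wt replicate 3 the log2 fold change was 0.68, and without mutant replicate 2 it was 0.22, so single libraries set its sign.

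The spread of Cebpb within genotypes stood out from nearly all genes. Its within-group SD of log2 CPM was 0.959, against a median of 0.198 and a 95th percentile of 0.446 over the 6910 genes that averaged 10 CPM or more, and 3 of these genes had a larger SD. The next highest SD among the factors above 10 CPM was that of Fli1, at 0.343, and the lowest was that of Cebpd, at 0.108. Cebpb also has the highest GC content of the 10 genes, 67.2% over its longest transcript. Over 176 genes with a GC content of at least 60%, the median deviation of a library from the mean of all libraries was -0.034, 0.056 and -0.049 (log2) in mutants and -0.048, 0.012 and 0.086 in wt. In wt the deviation and Cebpb were both highest in replicate 3, whereas in mutants the deviation was highest in replicate 2, where Cebpb was lowest, and lowest in replicate 3, where Cebpb was highest. The part of GC content in the spread of Cebpb was not tested. The exon of Cebpb shares 312 bases, 20.7% of its length, with Tmem189 on the other strand, which had 38.2 to 50.2 CPM over the 6 libraries. The part of shared reads in the spread of Cebpb was not tested.

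**Figure D2:**
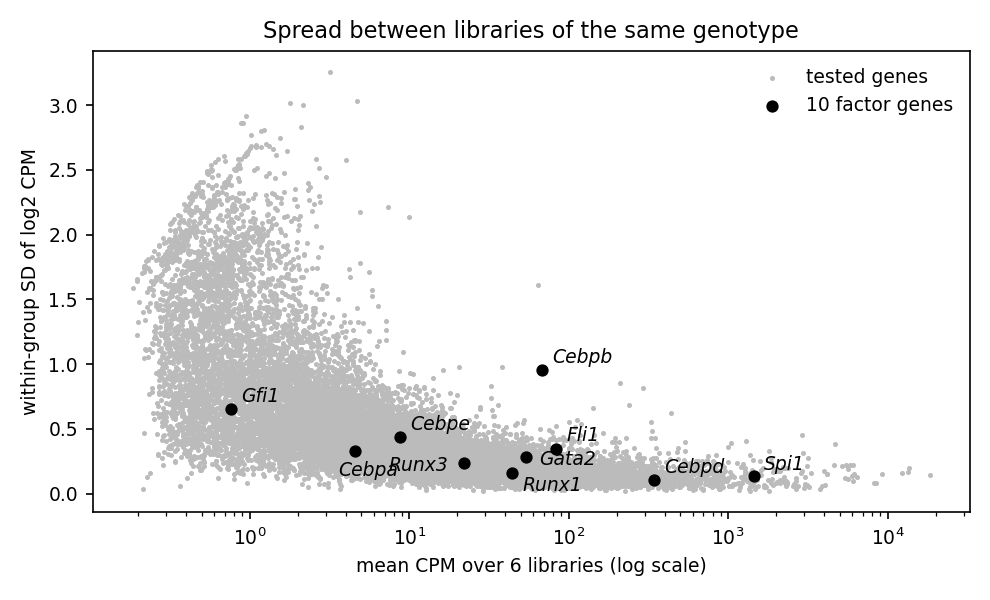
Within-group SD of log2 CPM against mean CPM on a log axis; grey points are all tested genes and black points the 10 factor genes. Among genes above 10 CPM, Cebpb stands at 0.959 and the other factors at 0.343 or below.

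Cebpe (ENSMUSG00000052435.7, chromosome 14, 54710360 to 54712174, minus strand, 2 exons) encodes the late granulocytic factor C/EBP-epsilon. It had 7.57, 14.5 and 10.03 CPM in mutants, against 7.62, 7.79 and 4.69 CPM in wt. Of the mutant libraries 2 lay above all wt libraries and 1 lay among them. The means were 10.7 ± 3.53 CPM in mutants and 6.70 ± 1.75 CPM in wt, a log2 fold change of 0.68 ± 0.32 with an adjusted p of 0.765 in edgeR (95% interval -0.03 to 1.38). Without mutant replicate 2 the log2 fold change was 0.39.

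Cebpa (ENSMUSG00000034957.10, chromosome 7, 35119293 to 35121928, plus strand, 1 exon) had 4.20, 5.35 and 2.83 CPM in mutants, against 5.06, 5.28 and 4.69 CPM in wt. The groups overlapped, with the lowest and the highest value both in mutants. The log2 fold change was -0.28 ± 0.33, with an adjusted p of 0.958 in edgeR (95% interval -1.02 to 0.46). It was -0.51 without mutant replicate 2 and -0.07 without mutant replicate 3.

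Of the ETS factors, Spi1 (ENSMUSG00000002111.8, chromosome 2, 91082390 to 91115756, plus strand, 7 merged exons) had 1276, 1641 and 1420 CPM in mutants, against 1407, 1515 and 1454 CPM in wt. The mutant values lay on both sides of the wt values, and the means were 1446 ± 184 CPM in mutants and 1458 ± 54.1 CPM in wt. The log2 fold change was -0.01 ± 0.10 with an adjusted p of 0.998 in edgeR, and the 95% interval of the fold change ran from 0.848 to 1.16. Larger differences in either direction lay outside that interval, which on the log2 scale was the narrowest of the 10. The sign of the log2 fold change turned positive without mutant replicate 1 (0.07), mutant replicate 3 (0.00137) or wt replicate 2 (0.02).

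Fli1 (ENSMUSG00000016087.13, chromosome 9, 32422204 to 32542861, minus strand, 10 merged exons) had 72.3, 123.6 and 66.7 CPM in mutants, against 80.8, 80.6 and 76.9 CPM in wt. The value of mutant replicate 2 stood above all others, and the other mutant values lay below all wt values. The log2 fold change was 0.14 ± 0.21, with an adjusted p of 0.971 in edgeR, and without mutant replicate 2 it was -0.20. The means were 87.5 ± 31.4 CPM in mutants and 79.4 ± 2.23 CPM in wt.

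The values of both RUNX factors overlapped between the genotypes. Runx1 (ENSMUSG00000022952.17, chromosome 16, 92601466 to 92826149, minus strand, 9 merged exons) had 46.5, 47.6 and 37.5 CPM in mutants, against 48.7, 40.7 and 44.4 CPM in wt. Its log2 fold change was -0.02 ± 0.15 with an adjusted p of 0.997 in edgeR, and the 95% interval of the fold change ran from 0.783 to 1.24. Runx3 (ENSMUSG00000070691.10, chromosome 4, 135120652 to 135177990, plus strand, 9 merged exons) had 27.2, 19.8 and 21.5 CPM in mutants, against 22.8, 17.3 and 23.6 CPM in wt. Both groups covered much the same range. Its log2 fold change was 0.10 ± 0.20, with an adjusted p of 0.986 in edgeR (95% interval -0.34 to 0.54).

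The family was shared nearly evenly. Runx3 took 34.2% ± 1.61 of the summed RPKM of Runx1, Runx2 and Runx3 in mutants and 33.3% ± 1.56 in wt, while Runx1 took 27.8% ± 4.96 in mutants and 29.4% ± 2.89 in wt. Runx2, the paralog best known from bone, took 38.0% ± 4.72 in mutants and 37.3% ± 3.13 in wt. With the long exon sum of Runx1 these shares rest on the length used.

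Gfi1 (ENSMUSG00000029275.18, chromosome 5, 107716657 to 107726036, minus strand, 8 merged exons) had 1.16, 1.02 and 0.923 CPM in mutants, against 0.821, 0.462 and 0.188 CPM in wt. These values rest on 42, 30 and 30 counts in mutants and 25, 14 and 6 counts in wt. Every mutant library lay above every wt library. The means were 1.03 ± 0.120 CPM in mutants and 0.490 ± 0.318 CPM in wt. The log2 fold change was 1.07 ± 0.79, with a 95% interval of -0.69 to 2.83, an unadjusted p of 0.204 and an adjusted p of 0.897 in edgeR, and the difference did not pass the threshold. Counts were few and the fitted biological coefficient of variation was 0.653. The log2 fold change was 1.66 without wt replicate 1 and 0.68 without wt replicate 3.

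Gata2 (ENSMUSG00000015053.14, chromosome 6, 88193891 to 88207032, plus strand, 7 merged exons) had 54.5, 45.8 and 41.3 CPM in mutants, against 78.7, 49.2 and 56.3 CPM in wt. The groups overlapped, and wt replicate 1 stood above the rest. The means were 47.2 ± 6.74 CPM in mutants and 61.4 ± 15.4 CPM in wt, a log2 fold change of -0.38 ± 0.19 with an adjusted p of 0.789 in edgeR (95% interval -0.80 to 0.04). Without wt replicate 1 the log2 fold change was -0.16.

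Gata2 and Fli1 are known also from mast cells, basophils or endothelium, and in bulk samples fewer cells of a type and less RNA per cell cannot be told apart. Of the defining genes of basophils and mast cells, Prss34, Fcer1a and Tpsb2 had no count, Mcpt8 had 6 counts in all and Ms4a2 12, all in mutant replicate 2, while the mast cell carboxypeptidase gene Cpa3 had counts in all 6 libraries (113 in all). Cpa3 had 0.533 ± 0.232 CPM in mutants and 0.647 ± 0.0810 CPM in wt. Cma1, a mast cell chymase with 94 counts in all, had 0.166, 0 and 0 CPM in mutants, against 0.591, 0.462 and 1.75 CPM in wt. Every mutant library lay below every wt library for Cma1 (unadjusted p 0.0178, adjusted p 0.593 in edgeR). Cma1 was highest in wt replicate 3, and Gata2 in wt replicate 1. The part of mast cell RNA in the value of Gata2 was not tested. The list summed to 83.8 to 106 CPM in mutants and 90.5 to 110.1 CPM in wt. Nearly all of it came from Kit, which had 96.5 ± 11.9 CPM in mutants and 101 ± 10.04 CPM in wt. Since it rests on Kit, the sum is not read as a level of basophils or mast cells. The 7 eosinophil markers summed to 71.7 to 116 CPM in mutants and 84.3 to 88.1 CPM in wt, mostly from Siglecf, which alveolar macrophages also express. Siglecf had 88.4 ± 20.6 CPM in mutants and 80.1 ± 1.16 CPM in wt. Ccr3 had 6.33 ± 2.36 CPM in mutants and 5.76 ± 2.61 CPM in wt, and Il5ra had 110 counts in all. The granule protein genes Epx and Prg3 had no count, and Prg2 and Ear6 had 2 each. All 8 of 8 endothelial markers were detected, and Cldn5, a tight junction protein, had 366 CPM in mutants and 399.5 CPM in wt. Their sum was 1318, 1146 and 1414 CPM in mutants, against 1420, 1283 and 1580 CPM in wt, with all 8 fold changes below 0 and a median log2 fold change of -0.11. Kit put the 6 libraries in the same order as the endothelial sum. The part of endothelial RNA in the values of Gata2, Fli1, Runx1 and Kit was not tested.

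Markers of other lung cells were also detected. Epithelial markers summed to 449 to 817 CPM in mutants and 207 to 467 CPM in wt, and fibroblast markers to 371 to 600 CPM in mutants and 271 to 321 CPM in wt. Cebpa and Cebpd are known to be expressed in lung epithelium and stroma as well, and the part of such RNA in their values was not tested. Monocyte markers summed to 619 to 706 CPM in mutants and 704 to 762.5 CPM in wt. Most of that sum came from Csf1r, which had 580.1 ± 33.9 CPM in mutants and 648 ± 29.4 CPM in wt. It is therefore not read as a level of monocytes. The lists of T, NK, B and plasma, dendritic and cycling cells and of megakaryocytes and platelets each summed to between 5.75 and 61.2 CPM in mutants and between 7.46 and 54.3 CPM in wt. Neutrophil markers summed to 15960 to 21260 CPM in mutants and 18720 to 20240 CPM in wt. At an unadjusted p under 0.05 in edgeR, 2 of the 9 were lower, against 3.22% of all tested genes, and 0 higher, against 3.51%. The lower genes were Cxcr2 and S100a8, a granulocyte calcium-binding protein. Cxcr2 had 2024 ± 99.2 CPM in mutants and 2567 ± 80.8 CPM in wt (adjusted p 0.294 in edgeR). S100a8 had 1149 ± 310 CPM in mutants and 1709 ± 36.8 CPM in wt (adjusted p 0.405 in edgeR). In both the groups did not overlap.

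**Figure D3:**
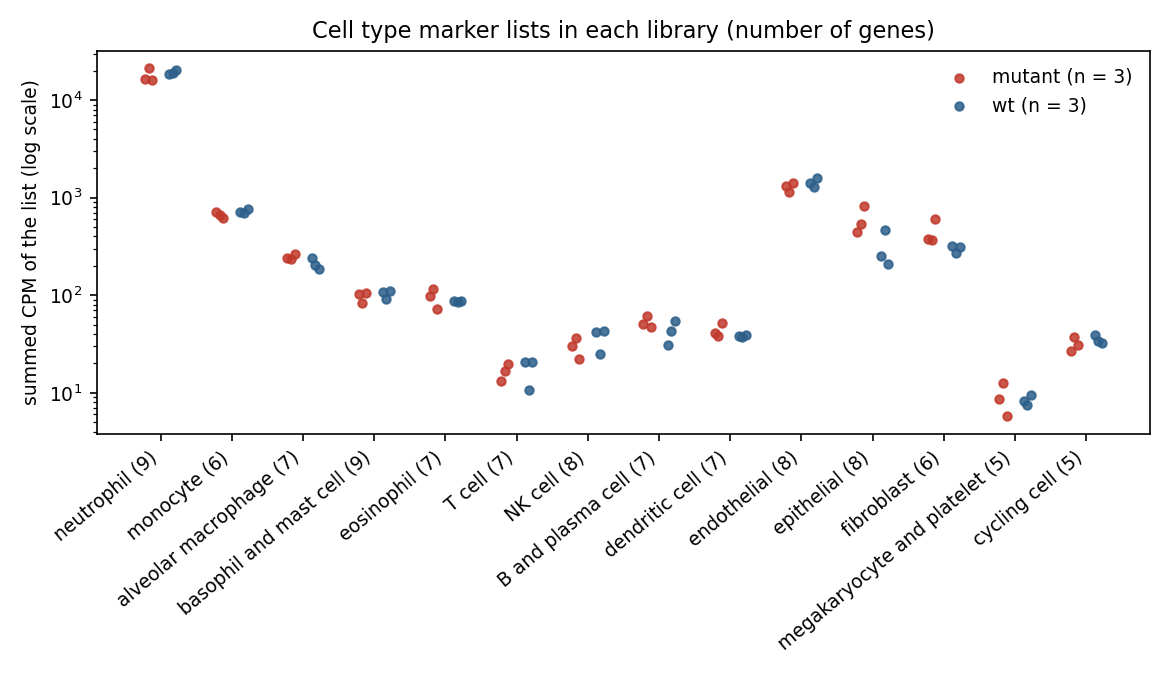
Summed CPM, on a log axis, of 14 marker lists (number of genes in brackets) in 3 mutant libraries (left of each pair) and 3 wt libraries (right); points are libraries. Neutrophil markers lie between 15960 and 21260 CPM and endothelial markers between 1146 and 1580 CPM. The basophil and mast cell list lies near 100 CPM, nearly all of it from Kit.

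Across the 10 factors, edgeR called 0 higher and 0 lower at an adjusted p under 0.05, where 1 of 15774 tested genes was called (0.00634%). At an unadjusted p under 0.05 no factor was higher, against 3.51% of tested genes, and 1 was lower (Cebpd), against 3.22%, or 6.73% in either direction. DESeq2 also called 0 of the 10 at an adjusted p under 0.05, against 0.983% of tested genes, with a lowest adjusted p of 0.399 for Cebpd. At an unadjusted p under 0.05 DESeq2 had 2 of the 10, Cebpd and Gata2, both lower, against 7.92% of tested genes. Groups did not overlap for 2 of the 10: mutants lay above wt for Gfi1, against 6.82% of tested genes, and below wt for Cebpd, against 6.21%. Log2 fold changes were above 0 for 4 factors and below 0 for 6, with a median of -0.02, against a median of 0.005 over all tested genes (7991 above 0 and 7783 below). With 10 factors a single gene is 10% of the list, so counts of 1 or 2 are not read as differing from the background.

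**Figure D4:**
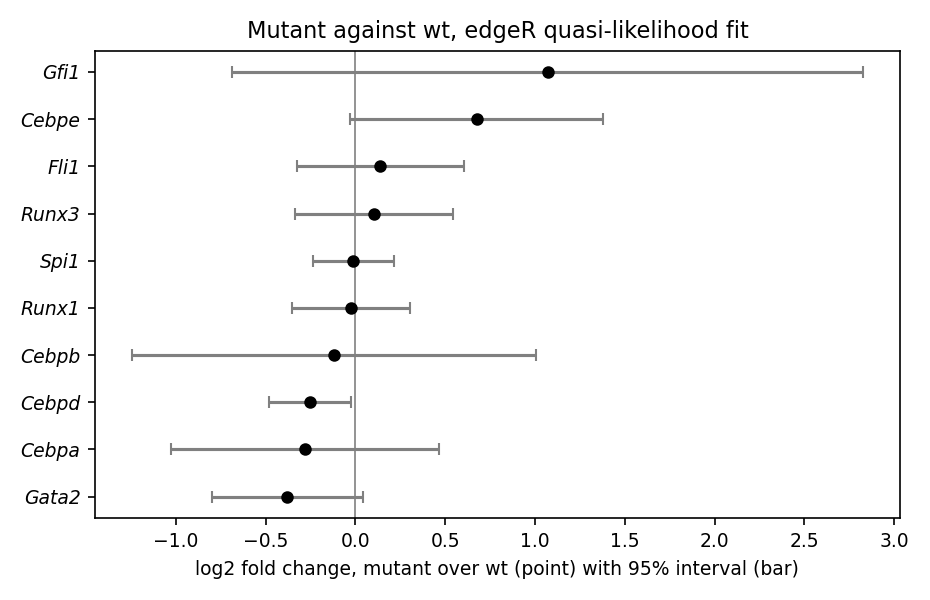
Log2 fold change of mutant over wt (points) with its 95% interval (bars) for the 10 factor genes in edgeR's quasi-likelihood test. Spi1 has an interval of -0.24 to 0.21, Gfi1 one of -0.69 to 2.83, and only that of Cebpd leaves out 0.

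The partners, regulators and targets of the factors were read from 10 lists, which together hold 90 genes of the table, 84 of them tested. None was called by edgeR at an adjusted p under 0.05. Below an unadjusted p of 0.05, 8 of the 84 were higher, against 3.51% of all tested genes, and 6 were lower, against 3.22%. Groups did not overlap for 7 with mutants above wt, against 6.82%, and for 12 with mutants below wt, against 6.21%; nothing particular to these genes is read from the counts, which were not tested. The median log2 fold change over these genes was -0.06. Outside edgeR's main test, DESeq2 called 4 of them higher at an adjusted p under 0.05: Egr1 (1.75e-05), Egr2 (0.000402), Ctsc (0.00839) and Irf5 (0.0161).

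Regulators of C/EBP proteins were on both sides. Below an unadjusted p of 0.05, 2 of 7 genes were higher, against 3.51% of all tested genes, and 1 was lower, against 3.22%. Atf4, a bZIP factor of the stress response that pairs with C/EBP proteins, had 120.6 ± 3.67 CPM in mutants and 95.4 ± 4.37 CPM in wt (log2 fold change 0.34, adjusted p 0.498 in edgeR). Cop1, the ubiquitin ligase that works with Tribbles proteins to degrade C/EBP-alpha, had 37.6 ± 0.419 CPM in mutants and 48.5 ± 2.33 CPM in wt (log2 fold change -0.37, adjusted p 0.558). In both genes the groups did not overlap.

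Granule genes, which C/EBP-epsilon and other C/EBP proteins drive in precursors, were measured in 2 lists. Of 9 specific and gelatinase granule genes 1 was higher (unadjusted p below 0.05), against 3.51% of all tested genes, and 0 lower, against 3.22%. Their median log2 fold change was -0.08. The higher gene was Chil3, a chitinase-like protein also made by alveolar macrophages, at 521, 372 and 999.6 CPM in mutants, against 319, 264 and 162 CPM in wt (log2 fold change 1.35 ± 0.34, adjusted p 0.345 in edgeR). With no filter on low counts edgeR called it, at an adjusted p of 0.000928. Alveolar macrophage markers summed to 233 to 264 CPM in mutants and 186 to 240 CPM in wt. Most of that sum came from Car4 and from Siglecf, which is also on the eosinophil list. Car4 had 108 ± 35.0 CPM in mutants and 94.8 ± 15.5 CPM in wt. All 7 alveolar macrophage markers had a log2 fold change above 0 with TMM, with a median of 0.19, and 6 of 7 with DESeq2 size factors. The part of alveolar macrophage RNA in the value of Chil3 was not tested. Hp, haptoglobin, had 2121 ± 201 CPM in mutants and 2420 ± 30.8 CPM in wt (adjusted p 0.749 in edgeR). Of 5 genes of the azurophil granules, which form at the promyelocyte stage, 2 were tested. Ctsc, the protease that activates granule serine proteases, had 82.6 ± 15.3 CPM in mutants and 52.1 ± 1.82 CPM in wt (log2 fold change 0.67, adjusted p 0.294 in edgeR). Prtn3, proteinase 3, had 0.276, 4.17 and 0.369 CPM in mutants, against 0.329, 0.727 and 0.156 CPM in wt (adjusted p 0.828 in edgeR), so that its higher mean in mutants rests on mutant replicate 2. Of the others, Elane had no count, Ctsg 6 counts and Mpo 76 counts over all libraries. With these so low, the value of Ctsc is not read as a mark of promyelocytes. The part of other cell types in the value of Ctsc was not tested.

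Receptor genes known to be activated by PU.1, C/EBP or RUNX proteins lay on 1 side of 0, with 1 exception under library totals. All 11 of 11 had a log2 fold change below 0 with TMM and with DESeq2 size factors, and 10 of 11 with library totals. The sizes were small, with a median of -0.11 against 0.005 over all tested genes. At an unadjusted p under 0.05, 1 was lower, against 3.22% of all tested genes. Of the 9 neutrophil markers, which share Csf3r and Itgam with this list, 8 were also below 0, with a median of -0.13. All 8 endothelial markers were below 0 as well, with a median of -0.115. The median was -0.026 for the 6 monocyte markers, which share Csf1r with the receptor list. It was 0.90 for the 8 epithelial markers, 0.57 for the 6 fibroblast markers and 0.19 for the 7 alveolar macrophage markers. The part of the makeup of the sorted cells in the receptor values was not tested. Fcgr3, a low-affinity IgG receptor, had 1043 ± 69.9 CPM in mutants and 1251 ± 62.3 CPM in wt (adjusted p 0.551 in edgeR). Csf1r, the receptor for macrophage colony-stimulating factor, had 580.1 ± 33.9 CPM in mutants and 648 ± 29.4 CPM in wt (adjusted p 0.822 in edgeR).

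Genes known to be repressed by GFI1 lay on both sides of 0. Of 10 tested, 4 had a log2 fold change above 0 and 6 below. At an unadjusted p under 0.05, 2 were higher, against 3.51% of all tested genes, and 1 was lower, against 3.22%. Egr1 and Egr2, zinc-finger factors that favour macrophage fate and are also immediate early genes, were the ones with the smallest p. Egr1 had 859, 914 and 807 CPM in mutants, against 391.8, 516 and 572 CPM in wt (log2 fold change 0.80 ± 0.13, adjusted p 0.242 in edgeR). Egr2 had 26.4, 22.4 and 31.6 CPM in mutants, against 10.8, 12.98 and 13.9 CPM in wt (log2 fold change 1.09 ± 0.20, adjusted p 0.253 in edgeR). In both, every mutant library lay above every wt library. A list of immediate early and tissue digestion genes summed to 30600 to 39740 CPM in mutants and 35470 to 38610 CPM in wt. It includes the heat shock genes Hspa1a and Hspa1b, which are not immediate early genes. Dusp1 was the largest part of that sum, with 15510 to 20560 CPM over all libraries. Of the 9 genes summed, 5 had a log2 fold change above 0 and 4 below, with a median of 0.072. Their log2 fold changes ran from -0.27 for Ier2 to 0.50 for Hspa1a. Apart from the heat shock genes the highest was 0.32, for Fosb. The part of tissue handling in the values of Egr1 and Egr2 was not tested. Of 8 tested GFI1 cofactors 1 was higher at an unadjusted p under 0.05, against 3.51% of all tested genes. That gene, Ajuba, encodes a LIM protein. It had 5.81 ± 3.12 CPM in mutants and 2.32 ± 0.476 CPM in wt (adjusted p 0.597 in edgeR), with overlapping groups. Rcor1, which with KDM1A forms the repressor complex that GFI1 recruits, had 22.2 ± 3.67 CPM in mutants and 24.3 ± 2.40 CPM in wt (adjusted p 0.966 in edgeR).

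RUNX partners, other ETS factors and progenitor factors had 0 genes at an unadjusted p under 0.05 among 8, 13 and 7 tested. Over all tested genes the share in either direction was 6.73%. The co-repressor Tle4 had 19.7 ± 0.782 CPM in mutants and 24.3 ± 1.86 CPM in wt, and Tle3 had 157 ± 32.3 CPM in mutants and 179 ± 4.95 CPM in wt. Ets1 had 100.7 ± 10.9 CPM in mutants and 124 ± 18.8 CPM in wt, and Etv6 had 59.4 ± 4.39 CPM in mutants and 72.4 ± 9.99 CPM in wt. Adjusted p in edgeR ran from 0.765 for Ets1 to 0.911 for Tle3 in these 4 genes. Of the progenitor factors, Ldb1, which bridges GATA and LMO proteins, had 11.9 ± 1.04 CPM in mutants and 9.56 ± 3.32 CPM in wt, and Zfpm1, the GATA cofactor FOG1, had 0.312 ± 0.196 CPM in mutants and 0.803 ± 0.443 CPM in wt (adjusted p in edgeR 0.937 for Ldb1 and 0.890 for Zfpm1). Gata1, the factor that replaces GATA2 in erythroid, megakaryocytic and mast cell development, had 1.38 CPM in mutant replicate 1 and no count in the other 5 libraries.

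Of 12 other myeloid factors, 1 was higher with an unadjusted p below 0.05, against 3.51% of all tested genes, and 3 were lower, against 3.22%. Their median log2 fold change was -0.24, against 0.005 over all tested genes. Irf5, an interferon regulatory factor of inflammatory myeloid cells, had 163.5, 184.5 and 182.5 CPM in mutants, against 136, 131 and 124 CPM in wt (log2 fold change 0.44 ± 0.10, adjusted p 0.304 in edgeR). Bcl6, a repressor of inflammatory genes, had 40.4, 39.1 and 36.4 CPM in mutants, against 50.8, 51.4 and 57.0 CPM in wt (log2 fold change -0.46 ± 0.13, adjusted p 0.428 in edgeR). In both the groups did not overlap, and neither passed the threshold in edgeR.

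**Figure D5:**
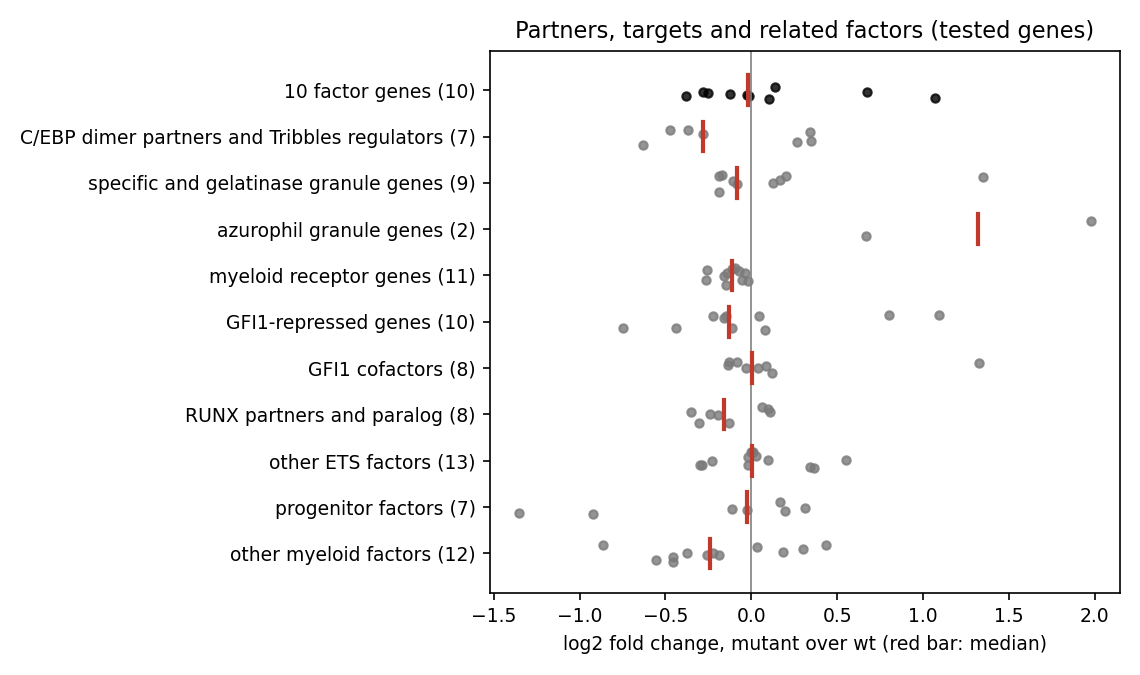
Log2 fold change of mutant over wt of every tested gene in the 10 factor genes (top row, black) and in 10 lists of partners, targets and related factors (grey), with the number tested in brackets and the median as a red bar. All 11 myeloid receptor genes lie below 0, and Egr1 and Egr2 stand at 0.80 and 1.09 in the row of GFI1-repressed genes.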

How the data were processed

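The authors deposited 1 table of raw read counts per gene, whole numbers that are not normalized, made with STAR and featureCounts on GRCm38 per the submitters' processing notes. Not given in the sources used here are tool versions, annotation and strandedness. SMART-Seq v2, used per the labels' protocols, amplifies cDNA and marks neither strand nor molecules, so floors cover counting error only. The deposited exon lengths gave RPKM.

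Symbols came from GENCODE M21 (55094 identifiers matched exactly, 300 without version, 93 not at all). Genes passing filterByExpr (minimum count 10) held 99.9% of counts. Groups were compared by edgeR 4.0.16 in R 4.3.3 (quasi-likelihood test, TMM, Benjamini-Hochberg over 15774 genes), unpaired; scripts were tested on simulated counts. Intervals are at 95%. Within-group SD used log2 CPM with a prior count of 2. Alternatives were DESeq2 1.42.0, its size factors, library totals, limma-voom (limma 3.58.1), other filters, and each replicate left out.

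The members and lists were chosen with earlier results of these data known. The text names all members and, of each list, called genes or the 2 with the smallest p. Named after their values were seen were Runx2, Elane, Ctsg, Mpo, Gata1, S100a8, Cldn5, Kit, Cpa3 and Cma1. The same holds for Siglecf, Ccr3, Il5ra, Ddit3, Cebpg, Dusp1, Ier2, Hspa1a and genes sharing exons with members. Car4, Cxcr2, Fosb and Hspa1b were also named after their values were seen.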

Additional observations from a re-analysis of the deposited data

How the results depend on the processing

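Of the 10 factors 0 were called, higher or lower, by any of the 12 alternatives that were run. Cebpa, Cebpe and Gfi1 averaged below 10 CPM and were not tested with the stricter filter. Log2 fold changes near 0 or set by 1 library turned round. With a replicate left out they ran from -0.62 to 0.68 for Cebpb (above 0 without mutant replicate 2 or wt replicate 3), -0.20 to 0.304 for Fli1 (below 0 without mutant replicate 2), -0.0903 to 0.078 for Runx1 (above 0 without mutant replicate 3 or wt replicate 1), -0.0391 to 0.193 for Runx3 (below 0 without mutant replicate 1 or wt replicate 2) and -0.118 to 0.0723 for Spi1 (above 0 without mutant replicate 1, mutant replicate 3 or wt replicate 2). Spi1 was also above 0 with a mean of at least 10 CPM (0.00637). Over all genes edgeR called 1 higher and 0 lower, DESeq2 81 and 74, edgeR with no filter 41 and 29, and with at least 10 CPM 14 and 4. With a replicate left out, 0 to 1 were higher (0 without mutant replicate 1, wt replicate 1 or wt replicate 3) and 0 to 1 lower (1 without mutant replicate 2). Of the listed genes, 0 were called higher by edgeR, 4 by DESeq2 (Egr1, Egr2, Ctsc, Irf5), 4 with no filter (Egr1, Egr2, Ctsc, Chil3) and 2 with at least 10 CPM (Egr1, Egr2), and the cause was not tested. No paired analysis was possible because the labels carry no replicate numbers that link mutant and wt libraries. Gfi1 had 6 to 42 counts a library, and the part of depth in its wide interval was not tested.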

Other observations

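The genes whose spread within genotypes exceeded that of Cebpb, picked after their values were seen, had it in different libraries. Gstp3, a glutathione transferase, had 53.8, 86.2 and 104 CPM in mutants, against 57.6, 78.4 and 4.66 CPM in wt. Camkk1, a calmodulin-dependent kinase kinase, had 15.2, 96.7 and 30.8 CPM in mutants, against 26.0, 36.2 and 22.9 CPM in wt. Acot1, a cytosolic acyl-CoA thioesterase, had 49.1, 8.57 and 12.5 CPM in mutants, against 15.0, 14.3 and 24.1 CPM in wt. The low value of Gstp3 was in wt replicate 3, where Cebpb was highest, and the high value of Camkk1 was in mutant replicate 2, where Cebpb was lowest. All 3 genes had overlapping groups, and with edgeR their adjusted p ran from 0.890 for Camkk1 to 0.966 for Acot1.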
